A study of Mus musculus with 36 samples.

Results

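Goblet cells are the mucus-secreting cells of the intestinal epithelium, and 8 genes of their secretory programme, Muc2, Fcgbp, Zg16, Clca1, Tff3, Spink4, Agr2 and Spdef, were followed across 36 RNA libraries of mouse intestinal organoids. The genes were chosen by name as known goblet cell genes, with earlier results of these data known. All 8 were found among the 52636 genes listed and among the 15497 with enough counts to be tested. The organoids were grown from jejunal crypts of C57BL/6 mice, with no engineered allele named in the labels, and were cultured for 2 days in 1 of 6 conditions with 6 libraries each. Every culture received an antibody, either control IgG or an antibody against the receptor Ptk7 (anti-Ptk7). Complete media (the commercial IntestiCult medium) and QCM were given with IgG alone, whereas SCM and Wnt5a were each given once with IgG and once with anti-Ptk7. QCM and SCM are complete media mixed with concentrated medium from mouse embryonic fibroblasts that were quiescent after serum withdrawal (QCM) or senescent (SCM). The Wnt5a conditions are complete media with the noncanonical ligand Wnt5a added. How senescence was induced in the fibroblasts used for these libraries is not given in the labels, and complete media with anti-Ptk7 was not analysed here, so the antibody was compared only within SCM and within Wnt5a.

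Goblet cells arise from secretory progenitors of the crypt, in which the factor Atoh1 acts upstream of Spdef, and Spdef in turn drives their maturation. Their main product is Muc2, a very large mucin that forms a polymer in the secretory pathway, is heavily O-glycosylated and is packed into granules, and that expands into the mucus gel once it is released. Folding of Muc2 requires Agr2, a protein disulfide isomerase of the endoplasmic reticulum, and the gel is joined by Fcgbp, Clca1, Zg16 and the trefoil peptide Tff3.

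The study asked if factors from senescent cells affect intestinal stem cells and regeneration, and in what way. It identified the shed part of Ptk7 as such a factor, and used recombinant Wnt5a as a separate treatment. For the goblet cell genes the comparisons address whether the mucus programme moved with the medium and whether it moved back with anti-Ptk7.

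The promoters of Agr2, Spdef, Muc2 and Fcgbp are shown because RefSeq entries for the build GRCm38.p6 were found for these 4 of the 8 genes. Among them are the folding enzyme and the transcription factor that were lowest with Wnt5a and anti-Ptk7 together, and the gel-forming mucin. Each sequence is the 250 bases before the RefSeq start site, 5′ to 3′ on the strand of the gene. Capitals mark GGAT, the core letters bound by Spdef itself, which is an ETS factor, or ATCC where it lies on the other strand. The windows are chr12:35992675-35992924 (plus strand) for Agr2, chr17:27728952-27729201 (minus strand) for Spdef, chr7:141690090-141690339 (plus strand) for Muc2 and chr7:28070986-28071235 (plus strand) for Fcgbp.
Agr2: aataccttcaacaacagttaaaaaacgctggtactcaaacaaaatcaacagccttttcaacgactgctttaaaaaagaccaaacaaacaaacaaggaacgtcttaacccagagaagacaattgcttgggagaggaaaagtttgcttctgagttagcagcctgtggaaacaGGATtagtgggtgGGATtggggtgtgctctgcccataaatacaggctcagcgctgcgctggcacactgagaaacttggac
Spdef: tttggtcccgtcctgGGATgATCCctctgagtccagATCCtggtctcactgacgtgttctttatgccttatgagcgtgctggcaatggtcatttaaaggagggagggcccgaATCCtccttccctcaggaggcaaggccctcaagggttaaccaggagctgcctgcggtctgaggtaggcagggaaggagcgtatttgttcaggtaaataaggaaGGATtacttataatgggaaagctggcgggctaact
Muc2: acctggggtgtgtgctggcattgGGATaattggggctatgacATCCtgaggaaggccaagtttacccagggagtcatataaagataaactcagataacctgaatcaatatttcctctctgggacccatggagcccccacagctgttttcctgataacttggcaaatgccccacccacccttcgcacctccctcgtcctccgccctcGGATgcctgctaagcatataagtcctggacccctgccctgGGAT
Fcgbp: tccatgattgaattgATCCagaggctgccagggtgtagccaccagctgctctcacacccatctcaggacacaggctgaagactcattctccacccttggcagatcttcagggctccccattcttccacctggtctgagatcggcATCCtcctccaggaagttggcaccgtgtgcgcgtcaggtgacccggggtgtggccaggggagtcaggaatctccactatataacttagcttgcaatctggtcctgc
The window held 2 such matches for Agr2, 5 for Spdef, 4 for Muc2 and 2 for Fcgbp, counting both strands. A match stood in 74.1% of 32851 RefSeq promoters of this length, so its presence does not set these genes apart. The forkhead letters TGTTTNC occurred once in the Agr2 window and once in that of Muc2, and in 17.8% of all promoters, the letters ACGTG once in the Spdef window and in 16.6% of all promoters, and no GGAATG, the letters bound by TEAD factors, was found in the 4 windows, against 12.6% of all promoters. These are matches of letters and not sites of binding.

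Libraries held between 9581589 and 21029769 counts, with a median of 13490071. Markers of the epithelium summed to between 6394 and 20404 CPM (counts scaled to a fixed library size) per library, whereas the 7 fibroblast markers were all below a mean of 0.5 CPM, summed to at most 1.32 CPM, and 3 of them were at 0 in every library. The 5 immune markers summed to between 10.6 and 20.1 CPM, most of it Csf1r with a mean of 13.9 CPM. Cd68 had a mean of 1.24 CPM, and Ptprc, Cd3e and Cd79a were below a mean of 0.5 CPM. The libraries that carry replicate number 1 stood apart for the goblet cell genes in all 6 conditions, and results are given with and without these 6 libraries where it matters. Each library is a whole organoid culture, so fewer goblet cells and less RNA per goblet cell cannot be told apart. The labels do not state which number is which mouse, and p values measure only the spread between these libraries.

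All 8 genes were expressed well above the detection limit of 0.5 mean CPM. Over the 36 libraries the mean level was 892 CPM for Fcgbp, 675 CPM for Tff3, 391 CPM for Spink4, 348 CPM for Agr2, 62.5 CPM for Zg16, 35.2 CPM for Muc2, 18.5 CPM for Spdef and 11.5 CPM for Clca1. Levels of different genes can be compared only per length. Per kilobase of coding sequence the order was Tff3 with 2779 CPM, Spink4 with 1516 CPM, Agr2 with 663 CPM, Zg16 with 125 CPM, Fcgbp with 115 CPM, Spdef with 19.02 CPM, Muc2 with 5.07 CPM and Clca1 with 4.197 CPM. Per kilobase of exon, Fcgbp (85.0 CPM) and Zg16 (49.7 CPM) changed places, and the other genes kept their order. The short secreted peptides and the folding enzyme thus stood far above the mucin on this scale. The genes lie on 5 chromosomes, and no exon of another annotated gene overlaps their exons. In GRCm38, Muc2 lies at chr7:141690340-141754693 (plus strand), Fcgbp at chr7:28071236-28120862 (plus), Zg16 at chr7:127050156-127087328 (minus) and Clca1 at chr3:145003817-145032776 (minus). Tff3 lies at chr17:31125306-31129646 (minus), Spink4 at chr4:40920052-40931395 (plus), Agr2 at chr12:35992907-36004087 (plus) and Spdef at chr17:27714352-27728955 (minus). By the study's methods the counts are of reads within coding sequences, summed per gene, so no value refers to a single exon.

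**Figure D1:**
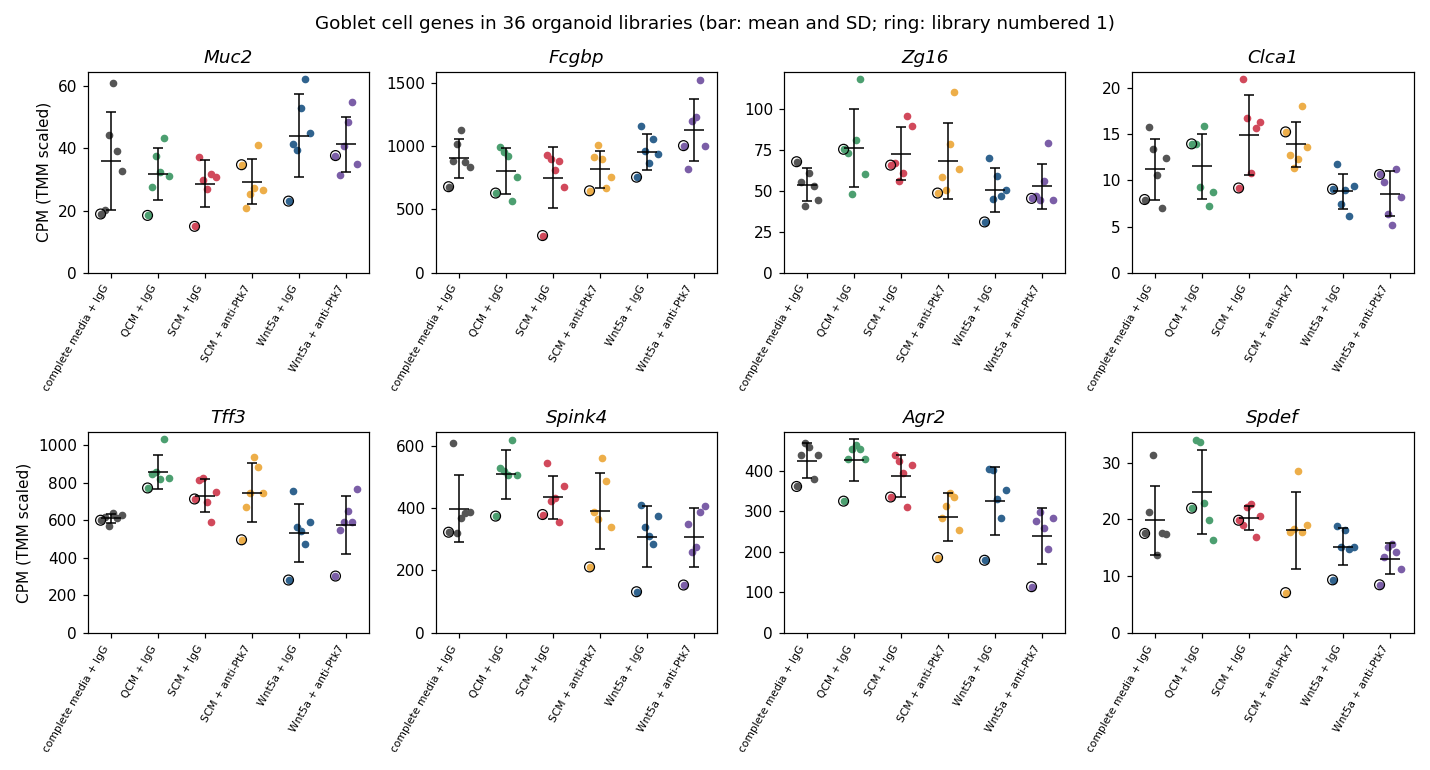
Level of each of the 8 goblet cell genes in the 36 libraries, in CPM after TMM scaling (y axis, from 0), by condition (x axis). Points are libraries, the horizontal bar and whiskers are the mean and SD of 6 libraries, and a ring marks the library numbered 1. Agr2 lay between 186 and 346 CPM in SCM + anti-Ptk7 beside 310 to 439 CPM in SCM + IgG, and between 114 and 298 CPM in Wnt5a + anti-Ptk7 beside 179 to 404 CPM in Wnt5a + IgG, with overlap in both media, and the ringed library was often the lowest of its condition.

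None of the 8 genes was called in any of the 6 main comparisons of conditions. All 15 pairs of conditions, which include these 6 and gave 13 calls, follow further down. A call means an adjusted p under 0.05 (edgeR quasi-likelihood test, Benjamini-Hochberg over the 15497 genes) and a fold change over 1.5. Of all genes tested, 0.374% were called for QCM, 6.08% for SCM and 10.2% for Wnt5a, each against complete media, 0.903% for SCM against QCM, and with anti-Ptk7 1.23% in SCM and 0.884% in Wnt5a. The higher and lower genes made up 0.355% and 0.0194% for QCM, 4.96% and 1.12% for SCM, 8.29% and 1.88% for Wnt5a, 0.761% and 0.142% for SCM against QCM, 0.581% and 0.645% with anti-Ptk7 in SCM, and 0.452% and 0.432% with anti-Ptk7 in Wnt5a. Without the fold cutoff, 0 of the 8 genes passed in any of these comparisons in the fit of all 36 libraries, beside 0.658% of all genes for QCM, 11.9% for SCM, 21.8% for Wnt5a, 1.72% for SCM against QCM, 2.72% with anti-Ptk7 in SCM and 2.57% in Wnt5a. Without the libraries numbered 1, a setting chosen after the data were seen, Tff3 in QCM (0.52, adjusted p = 0.00882) and Agr2 in Wnt5a (-0.30, adjusted p = 0.0359) and with anti-Ptk7 in SCM (-0.39, adjusted p = 0.0331) and in Wnt5a (-0.42, adjusted p = 0.0231) had an adjusted p under 0.05, all at folds under 1.5. In a fit that adds the replicate number as a block, these results for Tff3 and Agr2 also had an adjusted p under 0.05. They were again at folds under 1.5, and their values are given in the closing section. Beside the shares above, the count of 0 of 8 does not set the goblet cell genes apart. DESeq2 and voom with limma also called 0 in each comparison. At an unadjusted p under 0.05, edgeR gave 2 genes for QCM (Tff3 and Zg16), 1 for SCM (Zg16), 1 for Wnt5a (Agr2), 0 for SCM against QCM, and 1 for anti-Ptk7 in SCM and in Wnt5a (Agr2 in both). The shares of all genes at this threshold were 12%, 24.7%, 33.1%, 17%, 17.1% and 15% in the same order, so these counts of 8 do not stand out. The comparisons with complete media share the same 6 complete media libraries.

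None of the components of the mucus gel passed the test in the main comparisons between media. Muc2, the gel-forming mucin, had 18.9, 35.9 and 61.0 CPM (lowest, median and highest library) in complete media, 18.4, 31.8 and 43.3 CPM in QCM, 14.9, 30.3 and 37.3 CPM in SCM, and 23.04, 43.3 and 62.3 CPM in Wnt5a + IgG. The ranges of all 4 conditions overlapped. The log2 fold change of Muc2 in SCM was -0.34 against complete media (95% interval -0.83 to 0.16, adjusted p = 0.425) and -0.15 against QCM (-0.65 to 0.34, adjusted p = 0.804), and in Wnt5a it was 0.29 (-0.20 to 0.78, adjusted p = 0.441). The intervals leave room for a decrease in SCM by more than 1.5-fold as well as for no change.

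Fcgbp, a protein rich in von Willebrand D domains that is linked to the Muc2 gel, had 678, 878 and 1128 CPM in complete media, 293, 848 and 926 CPM in SCM + IgG, and 753, 950 and 1157 CPM in Wnt5a + IgG. Its fold changes were -0.27 in SCM (-0.65 to 0.11) and 0.08 in Wnt5a (-0.30 to 0.46) on the log2 scale, and the libraries of the conditions overlapped. Zg16, a lectin-like protein that binds Gram-positive bacteria in mucus, had 40.8, 54.5 and 67.9 CPM in complete media, 48.4, 74.5 and 119 CPM in QCM and 56.1, 66.6 and 96.1 CPM in SCM + IgG. Its log2 fold change was 0.50 in QCM (0.09 to 0.92, adjusted p = 0.287) and 0.43 in SCM (0.02 to 0.85, adjusted p = 0.182), so both conditioned media lay on the same side of complete media without passing the test. Clca1, a metalloprotease that processes the mucus gel, had 7.01, 11.5 and 15.8 CPM in complete media and 9.18, 16.01 and 20.99 CPM in SCM + IgG, a log2 fold change of 0.42 (-0.03 to 0.86, adjusted p = 0.246). In Wnt5a + IgG it had 6.16, 9.01 and 11.8 CPM, a log2 fold change of -0.34 (-0.79 to 0.11, adjusted p = 0.299), and the ranges again overlapped.

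The secreted peptides were highest in QCM. Tff3, a trefoil peptide that takes part in epithelial repair, had 568, 615 and 637 CPM in complete media and 772, 835 and 1031 CPM in QCM, and these ranges did not overlap. Over all genes, 1.74% had no overlap between these conditions. Even so, the log2 fold change of 0.49 (0.16 to 0.83) had an adjusted p of 0.177 in the fit of all 36 libraries. When only the 12 libraries of the pair were fitted, in which complete media spread by a coefficient of variation of 3.95%, the adjusted p was 0.00227, at a fold change below 1.5 in both fits. With an offset for transcript length, described further down, the log2 fold change was 0.32 (adjusted p = 0.381). In SCM + IgG, Tff3 had 589, 731 and 825 CPM and a log2 fold change of 0.26 against complete media (-0.07 to 0.59), with an adjusted p of 0.346 in the fit of all libraries and one below 0.05, also at a fold below 1.5, when only that pair was fitted. In Wnt5a + IgG it had 281, 552 and 754 CPM and a log2 fold change of -0.19 (-0.53 to 0.14). Spink4, a small secreted protein of the Kazal inhibitor family, had 320, 375 and 609 CPM in complete media, 374, 513 and 619 CPM in QCM, 355, 427 and 545 CPM in SCM + IgG and 132, 325 and 409 CPM in Wnt5a + IgG. Its log2 fold changes against complete media were 0.35 in QCM, 0.12 in SCM and -0.37 in Wnt5a, each with an interval that holds 0.

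Spdef, the transcription factor of goblet cell maturation, had 13.7, 17.6 and 31.4 CPM in complete media, 16.3, 22.4 and 34.1 CPM in QCM, 16.9, 20.2 and 22.7 CPM in SCM + IgG and 9.35, 15.1 and 18.8 CPM in Wnt5a + IgG. Its log2 fold change was 0.03 in SCM (-0.42 to 0.48) and -0.38 in Wnt5a (-0.83 to 0.08), and the ranges overlapped. Across the 8 genes the median log2 fold change was 0.18 in QCM, 0.08 in SCM and -0.27 in Wnt5a, each against complete media, beside 0.02, 0.01 and 0.01 over all genes tested. In Wnt5a, 6 of the 8 values were below 0, and for SCM against QCM it was 7 of 8, with a median of -0.15. Over all 15497 genes 7657 values were below 0 in Wnt5a and 7958 for SCM against QCM, where the median was -0.0078, and none of the 8 genes reached an unadjusted p under 0.05 in the latter comparison.

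**Figure D2:**
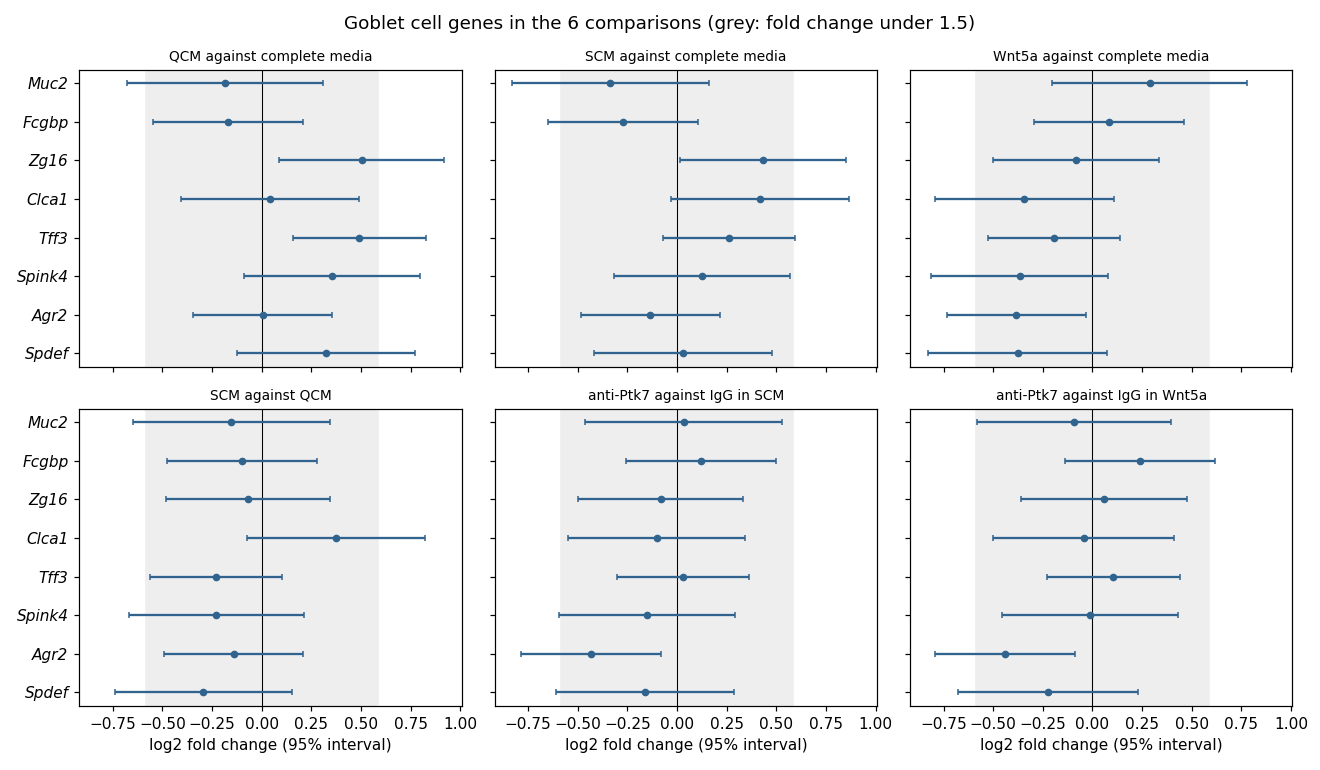
Log2 fold change of the 8 genes in the 6 comparisons between conditions (x axis, points with 95% intervals from the edgeR fit), with the band of fold changes under 1.5 in grey. No point was called, and the intervals that leave out 0 are those of Tff3 and Zg16 in QCM, Zg16 in SCM, and Agr2 in Wnt5a and with anti-Ptk7 in both media.

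Agr2 was the gene whose interval left out 0 with the antibody in both media, without being called in either. It had 310, 405 and 439 CPM in SCM + IgG and 186, 299 and 346 CPM in SCM + anti-Ptk7. In Wnt5a + IgG it had 179, 342 and 404 CPM, and in Wnt5a + anti-Ptk7 114, 268 and 298 CPM. The ranges overlapped in both media, but the median with the antibody lay below the lowest IgG library in SCM. The log2 fold change was -0.43 in SCM (-0.78 to -0.08, adjusted p = 0.178) and -0.44 in Wnt5a (-0.79 to -0.09, adjusted p = 0.187), neither of which was called. The difference between the effects was -0.0077, with an interval from -0.50 to 0.49. No gene was called for this difference (0% of all genes tested), and 0 of the 8 genes reached an unadjusted p under 0.05, as 3.88% of all genes did.

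The average of the antibody effects over SCM and Wnt5a was tested after these values had been seen. Averaged in this way, Agr2 was 1.35-fold lower with anti-Ptk7 (log2 fold change -0.44, interval -0.69 to -0.19, edgeR adjusted p = 0.0168). The fold change is below the cutoff of 1.5, so 0 of the 8 genes were called with the cutoff, beside 2.54% of all genes, and without it Agr2 was the only one of the 8, beside 11% of all genes. DESeq2 gave an adjusted p of 0.00550, voom with limma 0.0279, the fit without the libraries numbered 1 gave 0.000414 and the fit with the length offset 0.0298. The averages of the other 7 genes had intervals that hold 0, from -0.19 for Spdef to 0.18 for Fcgbp.

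Without the antibody, Agr2 was not called between media. It had 362, 439 and 468 CPM in complete media and 325, 442 and 464 CPM in QCM, against which the Wnt5a + IgG libraries gave a log2 fold change of -0.38 relative to complete media (-0.73 to -0.03, adjusted p = 0.111). The conditions thus ordered as QCM and complete media, SCM + IgG, Wnt5a + IgG, SCM + anti-Ptk7 and Wnt5a + anti-Ptk7, and the lowest condition combined the ligand with the antibody.

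All 15 pairs of conditions were also tested for the 8 genes in the same fit, including pairs that change medium and antibody together. Of 120 combinations of gene and pair, 13 were called, or 10.8%, beside 5.3% over all genes and pairs. All 13 had a Wnt5a condition on one side, 9 of them Wnt5a + anti-Ptk7, and 12 of the 13 were lower with Wnt5a. In the pairs with a Wnt5a condition 6.89% of all combinations of gene and pair were called, which is 78% of the calls over all genes, and 32.6% of those with Wnt5a in 1 of the conditions only were lower with it. The libraries did not overlap in 10 of the 120 combinations, beside 6.23% over all genes and pairs.

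Against complete media, Wnt5a + anti-Ptk7 gave 2 calls, with 14.5% of all genes called in this pair. Agr2 was 1.77-fold lower (log2 fold change -0.82 ± 0.17 SE, adjusted p = 0.000368), with all 6 libraries below all 6 of complete media. Spdef, with 8.48, 13.8 and 15.7 CPM in Wnt5a + anti-Ptk7, was 1.52-fold lower (-0.60 ± 0.22, adjusted p = 0.0379), with overlapping ranges. This pair changes the ligand and the antibody at once, so their parts cannot be told apart in it.

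Against QCM, Wnt5a + IgG gave 4 calls of 8 genes, with 9.34% of all genes called, and Wnt5a + anti-Ptk7 gave 3, with 14.7%. In Wnt5a + IgG, Spink4 fell 1.65-fold (-0.72 ± 0.22, adjusted p = 0.0148), Spdef 1.62-fold (-0.70 ± 0.22, adjusted p = 0.0191), Tff3 1.61-fold (-0.68 ± 0.16, adjusted p = 0.00253) and Zg16 1.502-fold (-0.59 ± 0.20, adjusted p = 0.0335). Only the libraries of Tff3 were without overlap among these. In Wnt5a + anti-Ptk7 against QCM, Spdef fell 1.90-fold (-0.92 ± 0.22, adjusted p = 0.00154), Agr2 1.78-fold (-0.83 ± 0.17, adjusted p = 0.000339) and Spink4 1.66-fold (-0.73 ± 0.22, adjusted p = 0.00946). All 6 libraries of Spdef and of Agr2 lay below those of QCM.

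Against SCM + IgG, Wnt5a + anti-Ptk7 gave 4 calls, with 5.76% of all genes called. Clca1, with 5.14, 9.01 and 11.2 CPM in Wnt5a + anti-Ptk7, fell 1.75-fold (-0.80 ± 0.22, adjusted p = 0.0113), Agr2 1.61-fold (-0.69 ± 0.17, adjusted p = 0.00552) and Spdef 1.55-fold (-0.63 ± 0.22, adjusted p = 0.0470). Fcgbp, with 819, 1098 and 1523 CPM, was the only member called as higher with Wnt5a, 1.51-fold (0.59 ± 0.19, adjusted p = 0.0256). Several of these folds lie just above the cutoff of 1.5. The 6 pairs among conditions without Wnt5a gave 0 calls among the 8 genes, beside 2.92% of all combinations of gene and pair there, so this count is near the share over all genes.

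**Figure D3:**
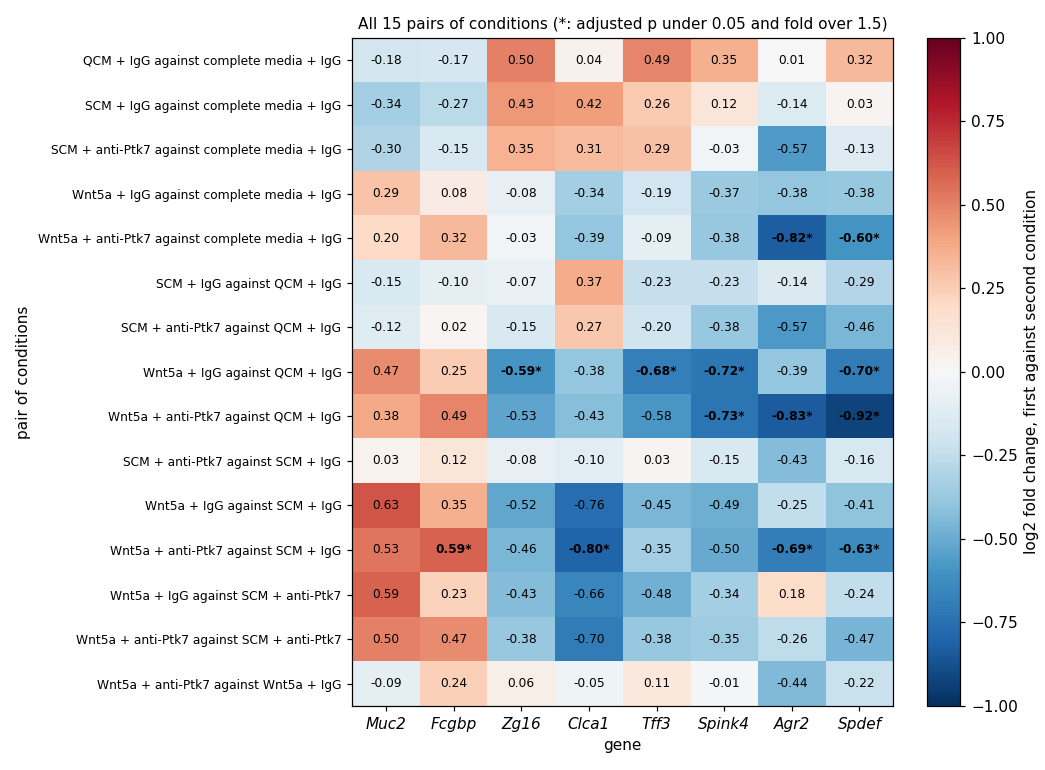
Log2 fold change of the 8 genes (columns) in all 15 pairs of conditions (rows, first condition against second), from blue (lower) to red (higher), with the value in each cell and an asterisk where it was called. The 13 asterisks all lie in rows with Wnt5a, and the strongest value among them is -0.92 for Spdef in Wnt5a + anti-Ptk7 against QCM + IgG.

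Transcript length moved with the conditions, and its values stand beside these calls because the 8 genes differ widely in length. Genes with under 1000 bases of exon had a median log2 difference from complete media of 0.14 in QCM, 0.09 in SCM + IgG, -0.10 in Wnt5a + IgG and -0.13 in Wnt5a + anti-Ptk7, and those over 8000 bases -0.06, -0.03, 0.10 and 0.16. Tff3 and Spink4 have 493 and 477 exon bases and followed the first of these patterns, whereas Fcgbp has 10497 and Muc2 7127. With an offset that removes the median deviation of each library within 20 classes of exon length, 7 combinations were called, 6 of them among the 13, beside 4.78% over all genes and pairs. Those 6 were Agr2 in Wnt5a + anti-Ptk7 against complete media (-0.71, adjusted p = 0.000722) and against QCM (-0.60), Spdef in the same pairs (-0.59 and -0.82) and in Wnt5a + IgG against QCM (-0.59), and Clca1 in Wnt5a + anti-Ptk7 against SCM + IgG (-0.83). Tff3 (-0.47), Spink4 (-0.50 and -0.47), Zg16 (-0.40) and Fcgbp (0.43) then fell short of a call, as did Agr2 and Spdef against SCM + IgG (-0.50 and -0.57).

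Without the 6 libraries numbered 1, 10 combinations were called, or 9 of the 13 and 1 further, beside 4.47% over all genes and pairs. Agr2 was then called in its 3 pairs (-0.73, -0.77 and -0.59), and Clca1 (-0.99), Tff3 (-0.59) and Spink4 (-0.65 and -0.68) in theirs. Spdef was called in both pairs with QCM (-0.64 and -0.87) but not against complete media (-0.54, adjusted p = 0.0407) or SCM + IgG (-0.55). Agr2 against complete media and QCM, Spdef against QCM, and Clca1 against SCM + IgG were called in all 3 of these fits, those of all libraries, without the libraries numbered 1 and with the length offset. Muc2 in Wnt5a + IgG against SCM + anti-Ptk7 (0.79, adjusted p = 0.0133) was called only without the libraries numbered 1, and Clca1 in the same pair (-0.67, adjusted p = 0.0455) only with the length offset, among these fits.

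Of 40 pairs of conditions next to each other in the order of mean level, 0 were called, beside 0.212% over all genes. Sorting by the mean makes these the closest pairs, so few calls can come from them. The fold between the highest and the lowest condition mean was between 1.51 for Zg16 and Fcgbp and 1.90 for Spdef. QCM was the highest condition for Tff3, Spink4, Zg16, Agr2 and Spdef, whereas Muc2 and Fcgbp were highest in a Wnt5a condition and lowest in SCM + IgG. Without the libraries numbered 1, Muc2 was lowest in SCM + anti-Ptk7 (-0.50 against complete media on the log2 scale, and -0.33 in SCM + IgG), and Fcgbp was at -0.17 in QCM and in SCM + IgG and at -0.18 in SCM + anti-Ptk7. The condition accounted for 53.1% of the variance of log2 CPM for Agr2, 43.9% for Tff3, 40.4% for Clca1, 37.7% for Spdef, 35.1% for Spink4, 32.2% for Zg16, 28.8% for Fcgbp and 23.9% for Muc2, with a median over all genes tested of 29.3%. Within a condition the SD of log2 CPM was between 0.32 for Tff3 and 0.46 for Muc2, beside a median of 0.29 over all genes.

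The libraries numbered 1 had low levels of the genes on average within their conditions. Expressed as the mean log2 deviation of the 8 genes from their condition means, the libraries numbered 1 lay below 0 in 6 of 6 conditions, with a mean of -0.40 and a range from -0.66 to -0.22. The means of the other 5 numbers were between 0.01 and 0.13. The lowest library was number 1 of Wnt5a + IgG, at -0.66, which was the lowest of its condition for 7 of the 8 genes. The part that a mouse, a day or a preparation shared by libraries of a number had in this was not tested, since the labels name none.

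**Figure D4:**
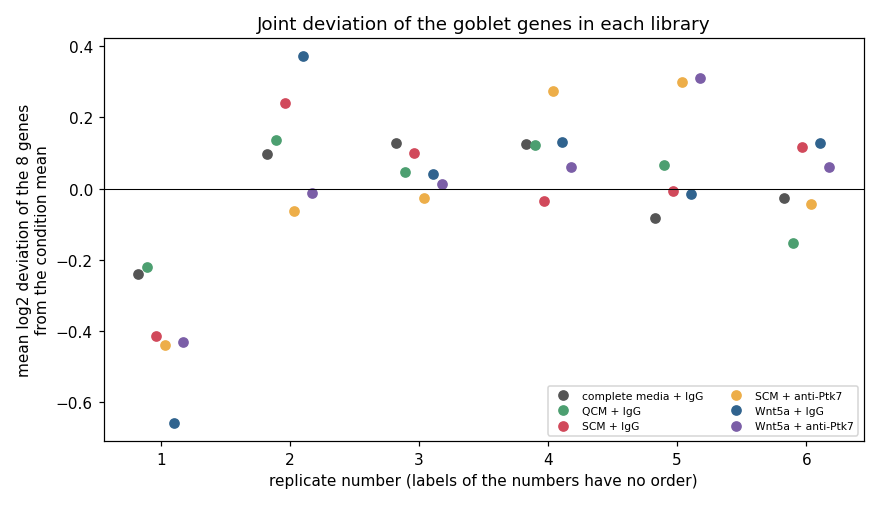
Mean log2 deviation of the 8 goblet cell genes from their condition means (y axis) for each of the 36 libraries, by replicate number (x axis) and coloured by condition. The libraries numbered 1 lay at -0.22 or below in each condition, and the mean of every other number was above 0.

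Across the 36 libraries, Tff3, Spink4, Agr2 and Spdef formed a block that varied together. Muc2 and Fcgbp followed each other and not this block, Zg16 followed only part of it, and Clca1 followed neither. The correlation of log2 CPM was 0.89 between Tff3 and Spink4, 0.78 between Agr2 and Spink4, 0.74 between Spdef and Agr2, 0.71 between Spdef and Spink4 and 0.70 between Tff3 and Agr2. Muc2 and Fcgbp correlated with each other at 0.61, but Muc2 at -0.11 with Tff3 and -0.0030 with Agr2, and Fcgbp at -0.15 with Tff3. Zg16 correlated at 0.64 with Tff3 and 0.61 with Spink4, and Clca1 at no more than 0.37 with any member. With condition means removed, Muc2 and Fcgbp were at 0.51, Tff3 and Agr2 at 0.89 and Agr2 and Spink4 at 0.81. The values of Muc2 with Tff3 and Agr2 were then 0.26 and 0.29, and those of Fcgbp with Tff3, Agr2 and Spdef 0.20, 0.31 and 0.34, all higher than over the libraries as a whole, whereas Clca1 stood between -0.09 (with Tff3) and 0.29 (with Fcgbp). These coefficients describe 36 libraries that share conditions, replicate numbers and depth, and the genes of the block are the shorter ones while Muc2 and Fcgbp are the longest. The part of length in the coefficients was not tested.

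Beyond the 8 genes, 48 further genes were examined in 4 lists, of which 41 were tested. The lists hold lineage factors, other mucins and secreted proteins, O-glycosylation enzymes, and genes of folding and granule release. They are called further goblet genes for short, but in whole organoid cultures their RNA cannot be assigned to goblet cells. For QCM 0 of them were called by edgeR (6 at an unadjusted p under 0.05), for SCM 3 rose and 1 fell, for Wnt5a 7 rose and 3 fell, and for SCM against QCM 3 rose. Of all genes tested, 4.96% rose and 1.12% fell in SCM, 8.29% and 1.88% in Wnt5a, and 0.761% and 0.142% in SCM against QCM, and nothing particular to the further genes was tested. Anti-Ptk7 gave 0 calls in SCM (5 at an unadjusted p under 0.05) and 1 higher and 1 lower gene in Wnt5a, beside 0.581% of all genes higher and 0.645% lower in SCM and 0.452% and 0.432% in Wnt5a. At an unadjusted p under 0.05 the shares of all genes were 12% for QCM and 17.1% with anti-Ptk7 in SCM. In SCM the 41 genes had a median of 0.03 on the log2 scale, and in Wnt5a one of 0.04. Not detected were Muc1, Muc5ac, Muc5b, Muc6, Tff2, Retnlb and St6galnac1, with means below 0.5 CPM.

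Over the 6 comparisons, 12.6% of all genes were called in at least 1. Among lineage factors, 1 of 12 was called. Bhlha15, a factor that expands the secretory apparatus, fell in Wnt5a from 21.9 ± 4.06 CPM to 12.4 ± 2.88 CPM (SD, n = 6, log2 fold change -0.82, adjusted p = 0.0190), and in SCM it had 13.1 ± 3.44 CPM (-0.73, adjusted p = 0.0559). None of the others, among them Atoh1, Gfi1, Klf4, Foxa1, Foxa3, Creb3l1 and Xbp1, passed in any of the 6 comparisons.

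In the list of other mucins and goblet-secreted proteins, 3 of 8 tested genes were called in at least 1 comparison, beside the same 12.6% of all genes. Agr3, a relative of Agr2, fell in SCM from 14.3 ± 2.68 CPM to 5.91 ± 1.45 CPM (-1.27, adjusted p = 0.00187) and in Wnt5a to 6.05 ± 2.93 CPM (-1.24, adjusted p = 0.00122). Tff1, a trefoil peptide that is mainly gastric, had between 0 and 0.94 CPM in complete media, with a mean of 0.325 CPM, below the detection limit. It had between 0.58 and 5.98 CPM in SCM (3.01, interval 1.31 to 4.71, adjusted p = 0.0153). In Wnt5a it had between 2.79 and 10.3 CPM (4.12, interval 2.41 to 5.82, adjusted p = 0.000490). These folds rest on a baseline near 0, so their size is uncertain, and the levels are far below that of Tff3. Muc4, a membrane-bound mucin, was higher with anti-Ptk7 in Wnt5a, at 16.5 ± 11.5 CPM against 6.18 ± 2.97 CPM (1.42, adjusted p = 0.0407), with overlapping libraries. The call of Muc4, and that of Pdia5 in the same comparison, was lost with no filter on low counts, with only the groups compared, and without any 1 of Wnt5a + IgG replicates 2, 3, 4 and 5 and Wnt5a + anti-Ptk7 replicates 4 and 5.

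Enzymes of mucin O-glycosylation gave 4 calls of 11 in Wnt5a and 1 in SCM, all higher, beside 8.29% and 4.96% of all genes that were higher in these comparisons. Gcnt1, which builds core 2 branches on O-glycans, rose from 5.08 ± 2.60 CPM to 19.9 ± 7.50 CPM in SCM (1.98, adjusted p = 0.000497) and to 36.1 ± 22.96 CPM in Wnt5a (2.84, adjusted p = 2.06e-06). The related enzyme Gcnt3 rose in Wnt5a from 78.3 ± 19.8 CPM to 175 ± 76.0 CPM (1.16, adjusted p = 0.00245). Galnt3, which starts O-glycan chains, and C1galt1, which extends them, rose in Wnt5a as well (0.83, adjusted p = 0.000124, and 0.60, adjusted p = 0.00557). Against QCM, SCM was higher for Gcnt1 (1.38, adjusted p = 0.0420) and Galnt3 (0.63, adjusted p = 0.0252), calls that were lost without any 1 of QCM + IgG replicates 3 and 4 and SCM + IgG replicates 1 and 5.

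Genes of mucin folding and granule release gave 2 higher and 1 lower of 10 in Wnt5a, beside 8.29% and 1.88% of all genes. Sytl2, a granule-tethering protein, rose in Wnt5a (0.89, adjusted p = 0.0140), and Nlrp6, which is needed for mucus granule exocytosis, fell from 383 ± 26.2 CPM to 234 ± 56.7 CPM (-0.71, adjusted p = 0.00214). Pdia5, a disulfide isomerase like Agr2, was lower with anti-Ptk7 in Wnt5a, at 25.02 ± 8.16 CPM against 38.7 ± 3.99 CPM (-0.63, adjusted p = 0.0396), and its value in SCM was -0.50 (adjusted p = 0.110).

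**Figure D5:**
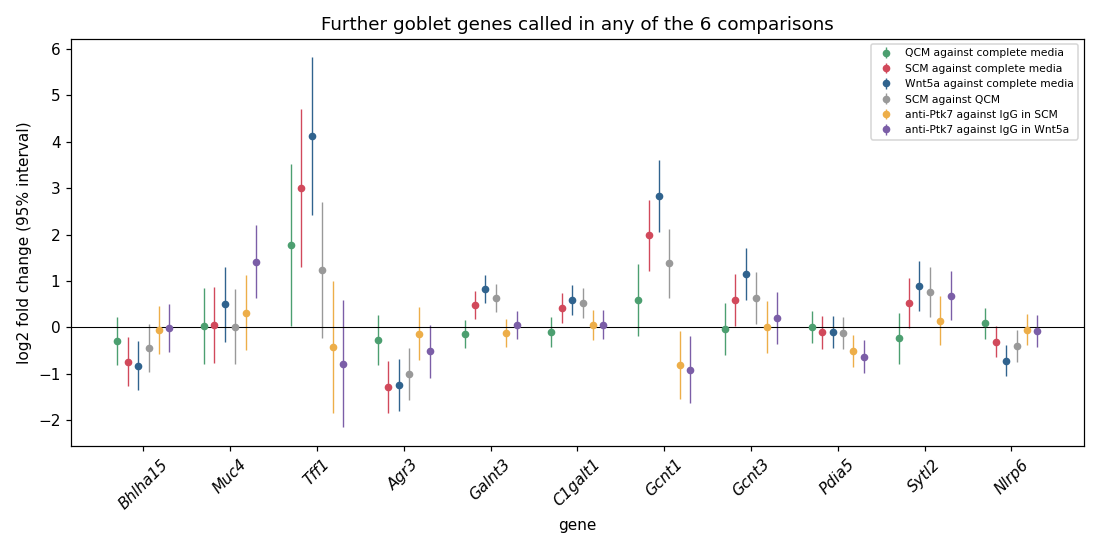
Log2 fold change with 95% interval (y axis) of 11 of the 12 further goblet genes that were called in any of the 6 comparisons (x axis), coloured by comparison. Against complete media, Gcnt1 lay at 1.98 in SCM and 2.84 in Wnt5a, Tff1 at 3.01 and 4.12, and Agr3 at -1.27 and -1.24. The mean of Tff1 in complete media was below the detection limit, so the size of its folds is uncertain.

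The markers of the other cell types of the epithelium stood beside these values as follows. Of 6 Paneth cell markers, 1 rose in QCM, 2 in SCM, 2 in Wnt5a and 1 in SCM against QCM, and 1 fell with anti-Ptk7 in Wnt5a, while their summed level was between 3808 and 4416 CPM per library in complete media and between 1787 and 3685 CPM in Wnt5a + anti-Ptk7. Of 10 enteroendocrine markers, 1 rose in QCM, 1 rose and 1 fell in SCM and likewise in Wnt5a, and with anti-Ptk7 3 fell in SCM and 2 in Wnt5a, beside 0.645% and 0.432% of all genes that fell with the antibody. Tuft cell markers, of which 5 were tested, gave 1 higher in SCM and 4 higher in Wnt5a, and their summed level went from between 7.56 and 13.2 CPM to between 24.9 and 41.3 CPM. Of 8 enterocyte markers, 3 rose in QCM, 4 rose and 1 fell in SCM, 3 rose and 1 fell in Wnt5a, and 1 fell with anti-Ptk7 in each medium, beside 0.355%, 4.96% and 8.29% of all genes that rose in QCM, SCM and Wnt5a. Of 5 stem cell markers, 1 fell in SCM and 1 in Wnt5a, and 0 of 5 proliferation genes were called in either. Over all genes tested, 1.12% fell in SCM and 1.88% in Wnt5a, and 0.761% rose in SCM against QCM. Of the 5 markers of the epithelium, 2 rose in SCM and 3 in Wnt5a, and their summed level was 6893 ± 560 CPM (SD, n = 6) in complete media, 10382 ± 1375 CPM in SCM + IgG, 11351 ± 2485 CPM in Wnt5a + IgG and 12551 ± 4099 CPM in Wnt5a + anti-Ptk7. The 8 goblet cell genes summed to between 2074 and 2738 CPM in complete media, 1830 and 2871 CPM in SCM + IgG and 1418 and 2867 CPM in Wnt5a + IgG. Whether the shares of these cell types had a part in the values of single genes was not tested.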

How the data were processed

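RNA from 36 organoid cultures, 6 per condition, was sequenced from Smart-Seq v4 and Nextera XT libraries, a chemistry that does not mark strand. The authors aligned single-end reads to the mouse genome (NCBI Build 38, mm10) with GSNAP through HTSeqGenie and deposited raw counts per gene, stated as reads within coding sequences. The submitters' processing notes also name GSNAP, and the annotation used for counting is not given in the sources used here. A series table with identical values was not used.

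Conditions were taken from the labels. Names, positions and lengths came from GENCODE M21 (GRCm38), in which all 114 listed symbols matched, and promoters from RefSeq. Computations used R 4.3.3, edgeR 4.0.16, limma 3.58.1, DESeq2 1.42.0 and Python 3.11.15. Genes were filtered with filterByExpr (15497 kept), scaled by TMM (factors 0.908 to 1.03) and tested with edgeR's quasi-likelihood test in 1 model of the 6 conditions. Benjamini-Hochberg adjustment ran over all tested genes, and a call required an adjusted p under 0.05 and a fold over 1.5. CPM values are TMM-scaled, and log2 CPM used a prior count of 2. Amplified reads are not independent molecules, and replicates differed by a chi-square per gene of 7.28 to 81.0, far beyond counting error.

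The 8 genes and the other lists were chosen with earlier results of these data known. All 8 were named, as were at most 5 called genes of each of the 4 further goblet lists and, in the closing section, the 12 genes with the highest correlation. Of the genes this rule names, 2 are not reported here. Other lists are given by counts and sums.

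The alternatives tried were limma-voom after quantile normalization (as in the study's methods), DESeq2, upper-quartile scaling, no filter, the replicate number as a block, only the groups compared, no fold cutoff and each library left out. The setting without the libraries numbered 1, the offset for 20 classes of exon length and the average antibody effect were chosen after seeing the data.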

Additional observations from a re-analysis of the deposited data

Results flagged for a closer look

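In 9 of 48 groups of 6 libraries a goblet cell gene had 1 library far from the others (Dixon's test at 95%), where chance would give about 1 in 20 groups, or 2.4. Of the 9, 7 were the low end of a library numbered 1. Muc2 had 14.9 CPM in SCM + IgG replicate 1, against 27.04 to 37.3 CPM in the other libraries of the condition. Fcgbp had 293 CPM in the same library, against 677 to 926 CPM. Spdef had 7.10 CPM in SCM + anti-Ptk7 replicate 1, against 17.8 to 28.5 CPM, and 9.35 CPM in Wnt5a + IgG replicate 1, against 14.9 to 18.8 CPM. Spink4 had 132 CPM in Wnt5a + IgG replicate 1, against 286 to 409 CPM. Tff3 had 302 CPM in Wnt5a + anti-Ptk7 replicate 1, against 548 to 765 CPM, and Agr2 had 325 CPM in QCM + IgG replicate 1, against 429 to 464 CPM. The other 2 were high values, Tff3 with 1031 CPM in QCM + IgG replicate 5, against 772 to 857 CPM, and Spink4 with 609 CPM in complete media + IgG replicate 2, against 320 to 389 CPM.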

How the results depend on the processing

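The count of 0 goblet cell genes called held in each of the 7 comparisons under limma-voom after quantile normalization, DESeq2, upper-quartile scaling, no filter on low counts, the replicate block, a fit of only the groups compared, no fold cutoff, and each library left out in turn, and under both settings added after the data were seen, which were no libraries numbered 1 and the length offset. The calls over all pairs of conditions numbered 13, and 7 with the length offset. The further goblet genes gave 3 calls for SCM against QCM, and 6 with the block, 5 with only the groups compared, 5 without the libraries numbered 1 and 0 to 4 when a library was left out. Of these, leaving out QCM + IgG replicate 3 or 4 or SCM + IgG replicate 1 or 5 gave 0, and QCM + IgG replicate 2 gave 1. For anti-Ptk7 in Wnt5a they gave 2, and 1 with upper-quartile scaling or without the libraries numbered 1, 0 with no filter or only the groups compared, and 0 to 2 when a library was left out, with 0 without Wnt5a + IgG replicate 2, 3, 4 or 5 or Wnt5a + anti-Ptk7 replicate 4 or 5, and 1 without Wnt5a + IgG replicate 6 or Wnt5a + anti-Ptk7 replicate 1. For SCM they gave 4, 8 with no fold cutoff and 4 to 7 when a library was left out, with 7 without SCM + IgG replicate 4. For QCM they gave 0, and 1 with the block or with no fold cutoff, and for anti-Ptk7 in SCM 0, and 1 with the block. The cause of these moves was not tested.

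The replicate number was left out of the main fit, and whether libraries of a number share a mouse or a preparation was not tested. Of 90 pairs with the same number, 34 correlated over 0.1, with a mean over the 90 of 0.092, against -0.018 for different numbers. For 16 of 36 libraries, the highest mean correlation among the 6 numbers was with their own. With the number as a block, 18 combinations over all pairs were called, 12 of them among the 13. Agr2 then had an adjusted p of 0.00450 in Wnt5a, 0.0109 with anti-Ptk7 in SCM and 0.0135 in Wnt5a, Tff3 0.0488 in QCM, and the average antibody effect on Agr2 0.000139, all at folds under 1.5. Without Wnt5a + IgG replicate 1 alone, Agr2 with anti-Ptk7 in Wnt5a was at -0.57 (adjusted p = 0.0478).

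Single log2 fold changes that changed sign were not called under any setting. With voom, the values were Clca1 -0.032 (QCM), Agr2 -0.018 (QCM), Spink4 0.0070 (anti-Ptk7 in Wnt5a), Clca1 -0.048 (the difference of the antibody effects), Fcgbp -0.028 (the difference of the antibody effects), Spdef 0.020 (the difference of the antibody effects). With DESeq2, the value was Agr2 -0.0064 (QCM). With upper-quartile scaling, the value was Agr2 -0.0023 (QCM). With no filter, the value was Agr2 -0.0026 (QCM). With the block, the value was Agr2 0.00041 (the difference of the antibody effects). With only the groups compared, the value was Agr2 -0.010 (QCM). With no libraries numbered 1, the values were Clca1 -0.090 (QCM), Zg16 0.10 (Wnt5a), Muc2 -0.17 (anti-Ptk7 in SCM), Fcgbp -0.0049 (anti-Ptk7 in SCM), Zg16 -0.0100 (anti-Ptk7 in Wnt5a). With the length offset, the values were Agr2 -0.11 (QCM), Spdef -0.019 (SCM), Fcgbp -0.016 (Wnt5a), Spink4 0.032 (anti-Ptk7 in Wnt5a), Zg16 0.062 (the average antibody effect). When a library was left out, the ranges that cross 0 were as follows. For QCM, the values were Agr2 -0.057 to 0.073, Clca1 -0.094 to 0.15, Muc2 -0.33 to 0.015. For the difference of the antibody effects, the values were Agr2 -0.13 to 0.13, Clca1 -0.067 to 0.17, Muc2 -0.26 to 0.0047, Spdef -0.23 to 0.12, Spink4 -0.019 to 0.27, Tff3 -0.055 to 0.20, Zg16 -0.012 to 0.33. For anti-Ptk7 in SCM, the values were Clca1 -0.21 to 0.024, Fcgbp -0.047 to 0.20, Muc2 -0.10 to 0.13, Spdef -0.34 to 0.0030, Tff3 -0.048 to 0.12, Zg16 -0.27 to 0.017. For anti-Ptk7 in Wnt5a, the values were Clca1 -0.14 to 0.063, Muc2 -0.23 to 0.031, Spink4 -0.17 to 0.13, Tff3 -0.030 to 0.24, Zg16 -0.10 to 0.18. For SCM against QCM, the values were Fcgbp -0.18 to 0.076, Zg16 -0.17 to 0.10. For SCM, the value was Spdef -0.070 to 0.20. For Wnt5a, the value was Zg16 -0.20 to 0.020.

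For all 8 genes the spread between replicates limits what the intervals can show.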

Other observations

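The mean standardized level of the 8 goblet cell genes was compared with the log2 CPM of 12449 other genes across the 36 libraries, as a description of libraries that share conditions, replicate numbers and depth. Among the 12 genes whose pattern was most like it were Gstt2 with a correlation of 0.85, Tmem176b with 0.85, Smim24 with 0.85, Pycard with 0.84, Khk with 0.83, Tstd1 with 0.83, Mt1 with 0.82, Atpif1 with 0.82, Suclg1 with 0.82, H2afv with 0.82 and Fahd1 with 0.81. Each of the 8 genes is part of this mean, which raises its own correlation with it. Their values therefore cannot be ranked against those of the other genes. With this part included, Spink4 stood at 0.89, Tff3 at 0.83, Agr2 at 0.77, Spdef at 0.75, Zg16 at 0.64, Clca1 at 0.42, Muc2 at 0.19 and Fcgbp at 0.19. Of the other members, Muc2 and Fcgbp each correlated above 0 only with the other of this pair. With condition means removed, and the gene still part of the mean, Muc2 stood at 0.54 and Fcgbp at 0.59.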
